A study of Microcebus murinus with 18 samples.

Results

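The cortex of the temporal lobe was compared between 10 old and 6 young adult grey mouse lemurs (Microcebus murinus, a small primate), 16 of the 18 animals of the study. The animals were chosen by their sample titles alone, and no measured value was used. The old group held 7 females and 3 males and was described by the submitters as healthy, and the young adult group held 4 females and 2 males. The labels give age only as a category and name no transgene or treatment. Each animal is a separate replicate with 1 array, and the study grouped its animals to separate aging from pathology that resembles Alzheimer's disease. The 2 AD-like animals were not used. Because no lemur array existed, the RNA was hybridized to a human array (Affymetrix HG-U133 Plus 2.0), on which a probe set is a group of short probes for 1 human transcript. A signal therefore depends on how well a lemur transcript matches human probes, so levels of different probe sets were not set against each other.

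As background, the temporal cortex holds excitatory and inhibitory neurons together with astrocytes, myelin-forming oligodendrocytes, microglia and blood vessels, and whole tissue mixes the RNA of all of them. Neurons spend much of their energy on restoring ion gradients after synaptic activity, and they draw the ATP mainly from the respiratory chain of mitochondria. Ribosomes make their proteins, proteasomes and lysosomes remove them, and metallothioneins and thioredoxin buffer metals and oxidants. Changes of these systems, of synaptic proteins and of glial cells are the ones most studied in the aging brain.

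The authors' signals were linear intensities, scaled so that the trimmed mean of each array was 100. After the 62 control probe sets were left out, the 13881 probe sets that reached a signal of 150 on at least 3 of the 16 arrays were kept, and they were compared as log2(signal + 16), so the differences of dim probe sets are understated. The median signal of an array lay between 30.7 and 54.4. The Y-linked gene RPS4Y1 gave signals of 1807 to 5904 in the 5 males and 50.1 to 252 in the 11 females, as labelled. Added poly-A control RNA was absent from the arrays of old M1, old M2 and young adult M2, where its highest signal was 42.3 to 60.5 against 421 to 4185 on the other 13. The rank correlation (Spearman) of these 3 arrays over the kept probe sets was 0.77 to 0.83 among themselves and 0.62 to 0.73 with the others, and young adult M1 reached at most 0.73 with any array. For GAPDH, the log2 ratio of its 3' control to its 5' control, a sign of RNA integrity and labelling, was 0.31 ± 0.20 (SD, n = 6) in young adults and 0.59 ± 0.53 (SD, n = 10) in old animals. For ACTB the same ratio was -2.38 ± 0.54 (SD, n = 6) in young adults and -1.92 ± 1.04 (SD, n = 10) in old animals. Both ratios also depend on how well lemur RNA matches the human control probes, so their size alone is no measure of intact RNA.

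No probe set (0 of 13881, 0.0%) passed the adjusted threshold of 0.05 in limma, where the smallest adjusted p was 0.824. With limma's unadjusted p under 0.05 there were 501 probe sets higher in old animals (3.61% of 13881) and 328 lower (2.36%). By the methods' t-test, run on linear signals, 471 were higher, 384 were lower and 0 passed after adjustment. Without young adult M1 the counts were 291 higher and 202 lower, without young adult F2 they were 794 and 426, and without young adult F4 they were 360 and 216, each with 0 after adjustment. The genes below are described by their values, and the unadjusted p beside them is no call. Some of them passed the filter only through the group in which they were high, because fewer than 3 arrays of the other group reached 150. For such genes the filter itself favoured a difference in that direction, so their differences are no support for a change. Through old animals these were TP53BP1, SLCO3A1, KCNIP3, MYO6, RHOH, BLVRB, GRPEL1, MRPS31, MRPL39, NDUFC1, NDUFA9, COX6B1, ATP5ME, PARK7, GRIK1, CACNA2D2, IER3, ATG14, HNRNPLL, EXOSC9, MTA2, ATP1B3, EGFL7, DRD2 and PDYN. Through young adults they were ARSF, NAT16, TMCC2, TOB2, LLGL1, TMEM151B, DYRK1B, RASGRF1, CLU, FABP5, SLC6A11, ALDH1L1, P2RY12, A2M, MRPL54, MAG and CORT. Over the 8328 genes with a kept probe set that carries 1 gene symbol, taking the brightest for each, limma's unadjusted p was under 0.05 for 3.71% with a higher level in old animals and for 2.23% with a lower one. The median log2 difference over these genes was 0.05, and 56.1% of them were higher in old animals.

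The age difference varied with the brightness of a probe set, as seen in 10 equal classes of the kept probe sets ordered by mean signal. In the dimmest class, with mean signals of 52.8 to 104, the median log2 difference was -0.11 and 41.5% were higher in old animals. In the brightest class, with mean signals from 1146 upward, it was 0.27, and 87.5% of 1388 probe sets were higher. Of these, 124 (8.93%) were higher with limma's unadjusted p under 0.05 and 1 was lower, whereas in the dimmest class 28 were higher and 84 lower. The slope was present in females (0.21 in the brightest class), on the 13 arrays with the poly-A control (0.34) and without young adult M1 (0.15). Quantile normalization, which gives every array the same distribution of signals, left a median of 0.02 in the brightest class. The median log2 level of the brightest class was 10.37 to 11.54 in young adults and 10.74 to 11.68 in old animals, with young adult M1 lowest. A higher level of all bright transcripts in old animals and a difference in how the arrays respond cannot be told apart from these signals. For this reason the median of each list described below is given with its value after quantile normalization. The lists and their members were chosen with earlier results of these data known, so their counts and their order are no independent support for a change.

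**Figure D1:**
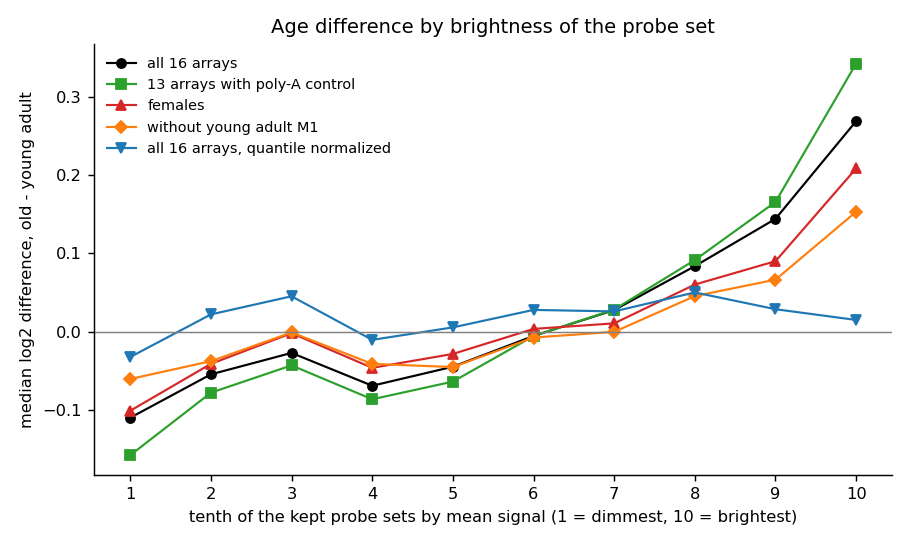
Median log2 difference between old and young adult animals (vertical axis) in 10 equal classes of the 13881 kept probe sets ordered by mean signal (horizontal axis), for all 16 arrays and for 4 other settings, each with its own marker. The difference climbs from -0.11 in the dimmest class to 0.27 in the brightest on all 16 arrays and is near 0 in every class after quantile normalization.

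In 5 probe sets the old and young adult animals did not overlap at all. Whether this is more than chance gives among 13881 probe sets was not tested. Every old animal was above every young adult in 3 of 13881 probe sets (0.0216%), those for CALU, ATP5ME and KAZN, and below every young adult in 2 (0.0144%), those for DYRK1B and CACNA1H. CALU, a calcium-binding protein of the secretory pathway, had signals of 326 to 406 (median 366) in young adults and 423 to 676 (median 476) in old animals. The groups were narrow and separate, with a log2 difference of 0.43 ± 0.18 (SE, unadjusted p = 0.0268), but 3 other kept probe sets for CALU gave log2 differences of 0.14, -0.44 and -0.27. KAZN, a junction-associated protein, had signals of 125 to 244 (median 199) in young adults and 249.7 to 448 (median 292) in old animals. The old animals again all lay above, with a log2 difference of 0.68 ± 0.20 (SE, unadjusted p = 0.00319), against -0.01 and 0.38 for its 2 other kept probe sets. ATP5ME, a subunit of the mitochondrial ATP synthase, had signals of 49.2 to 112 (median 79.1) in young adults and 113 to 279.9 (median 136) in old animals, so none of its young adult signals reached 150 and it was kept through old animals. Its difference was 0.78 ± 0.23 (SE, unadjusted p = 0.00243), and a second kept probe set gave -0.19.

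CACNA1H encodes the pore of a low-voltage-activated (T-type) calcium channel, which shapes burst firing of neurons. It had signals of 199.8 to 348 (median 274) in young adults and 36.5 to 193 (median 140.2) in old animals. Old M3 was far below the other old animals, and all 10 stood below the lowest young adult, with a log2 difference of -1.02 ± 0.27 (SE, unadjusted p = 0.00109) and -1.05 after quantile normalization. DYRK1B, a protein kinase that holds cells in a resting state, had signals of 184 to 325 (median 208) in young adults and 19 to 179 (median 123) in old animals. Old F4, F6 and M3 were well below the rest of their group, and the difference was -1.10 ± 0.35 (SE, unadjusted p = 0.00541). Only 2 old animals reached 150 for DYRK1B, so it was kept through young adults. After quantile normalization 4 probe sets had every old animal above and 2 had every old animal below the young adults.

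**Figure D2:**
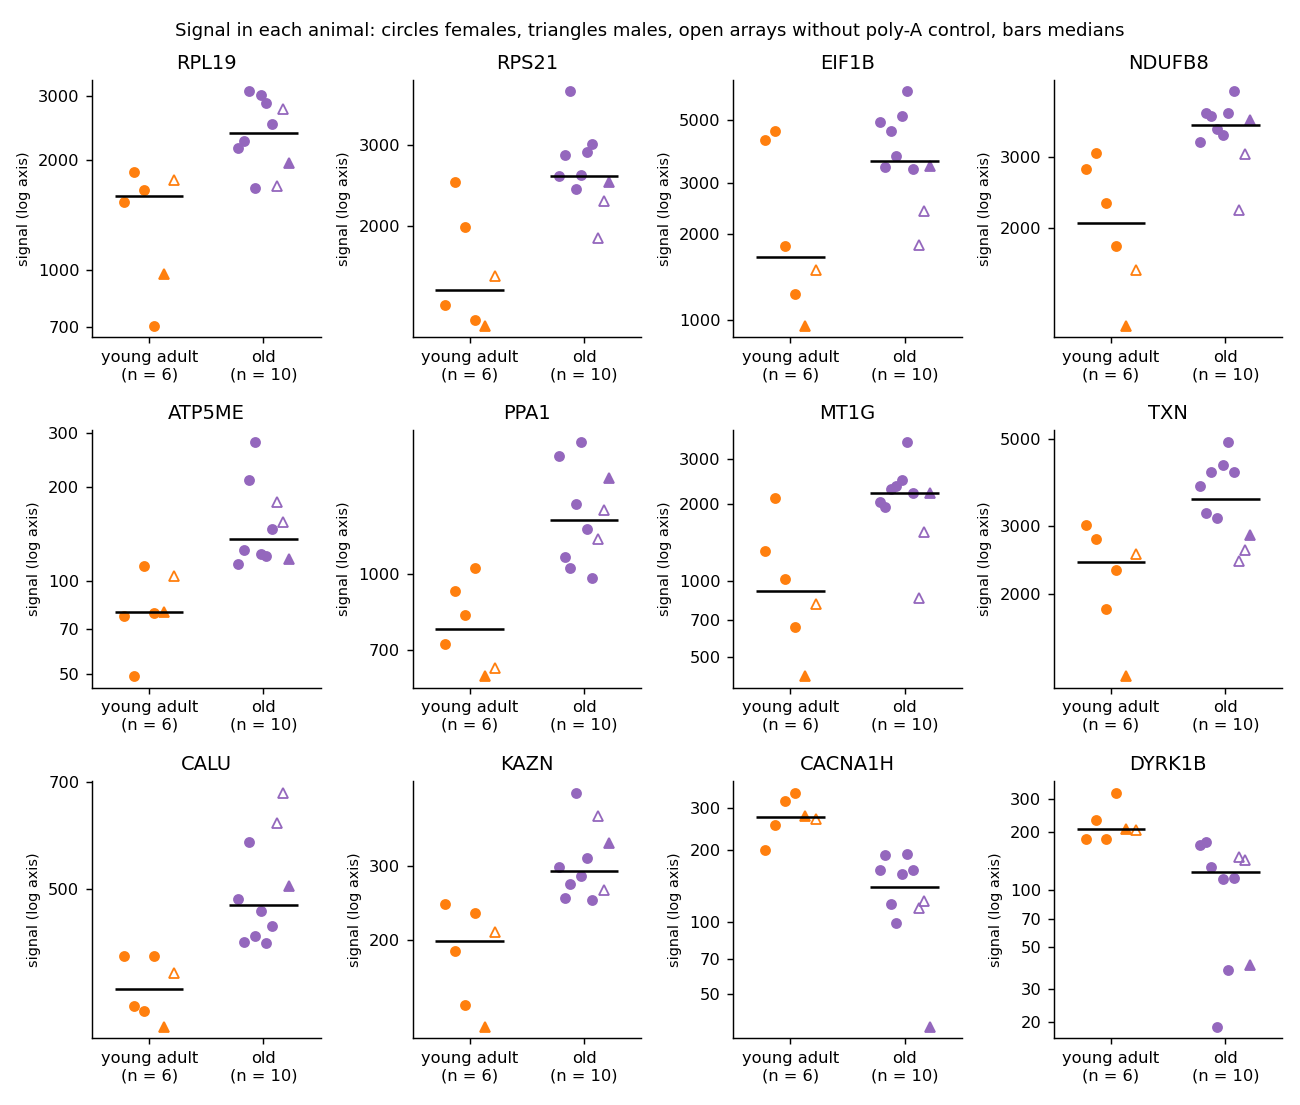
Signal of 12 named genes in each animal on a log axis, with circles for females, triangles for males, open symbols for the 3 arrays without the poly-A control, and bars for the group medians. CALU, KAZN, ATP5ME, CACNA1H and DYRK1B show no overlap between the 6 young adult and 10 old animals, while RPL19, RPS21, EIF1B, NDUFB8, PPA1, MT1G and TXN have higher medians in old animals with overlapping ranges.

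Transcripts for cytosolic ribosomal proteins, the structural proteins of the ribosome, were mostly higher in old animals. Of 20 small-subunit genes kept (32 listed) 20 were higher, and of 29 large-subunit genes kept (47 listed) 25 were higher and 4 lower. With limma's unadjusted p under 0.05, 7 small-subunit and 9 large-subunit genes were higher, 35% and 31% of those kept, and none was lower. Ribosomal protein transcripts are bright, with 18 of the 20 and 18 of the 29 in the brightest class of probe sets, where over all probe sets 8.93% had that p and 87.5% were higher, against 100% and 86.2% of the small-subunit and large-subunit genes. The median log2 difference of the small subunit was 0.51 in all 16 animals, 0.21 after quantile normalization, 0.54 in females and 0.36 without young adult M1, and that of the large subunit was 0.52 in all 16 animals, 0.22 after quantile normalization, 0.55 in females and 0.39 without young adult M1. After quantile normalization 19 of 20 and 22 of 29 were higher, and 1 and 4 were higher with an unadjusted p under 0.05. Over all 8328 genes in that setting 53.3% were higher and 3.91% were higher with that p. In the brightest class of probe sets 3.53% were, so the small-subunit count was near the general share. The mean log2 level over the small-subunit genes was 10.88 to 12.26 (median 11.87) in young adults and 11.41 to 12.79 (median 12.34) in old animals. The ranges overlapped in 4 old animals, of which old M1, an array without the poly-A control, was lowest at 11.41. Young adult M1, at 10.88, was the lowest of all. For the large subunit the mean log2 level was 9.91 to 10.58 (median 10.29) in young adults and 9.84 to 11.11 (median 10.76) in old animals. Of the old animals 8 stood above every young adult, old M2 lay within their range, and old M1 at 9.84 was below all 6.

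RPS21, a small-subunit protein, had signals of 1207 to 2494 (median 1443) in young adults and 1882 to 3939.8 (median 2574) in old animals. Its old animals lay above every young adult in 7 of 10, with a log2 difference of 0.74 ± 0.21 (SE, unadjusted p = 0.0024). RPS15A had signals of 740.0 to 2086 (median 1661) in young adults and 1458 to 5002 (median 2298) in old animals, and old animals exceeded all young adults in 5 of 10, with a log2 difference of 0.74 ± 0.30 (SE, unadjusted p = 0.0235). RPL19, a large-subunit protein, had signals of 706 to 1864 (median 1602) in young adults and 1679 to 3088 (median 2384) in old animals. The overlap came from old F4 and old M1, whose signals of 1679 and 1697 lay within the young adult range, and the difference was 0.80 ± 0.24 (SE, unadjusted p = 0.00348). RPL36 had signals of 267 to 636 (median 408) in young adults and 385 to 1132 (median 789) in old animals, with 8 of 10 old animals above every young adult and a log2 difference of 0.85 ± 0.25 (SE, unadjusted p = 0.00277). RPL10A (0.94), RPL8 (0.67), RPL18 (0.67), RPL27 (0.66), RPL37 (0.79), RPL30 (0.56), RPL12 (0.50), RPS10 (0.73), RPS24 (0.64), RPS7 (0.59), RPS19 (0.58) and RPS25 (0.56) were the other members with a positive log2 difference and an unadjusted p under 0.05. The 4 large-subunit members with lower levels were RPL27A (-0.57), RPL41 (-0.21), RPL38 (-0.08) and RPL29 (-0.05), with unadjusted p between 0.201 and 0.838. Ribosomal protein genes have many processed copies in primate genomes, so a probe set can collect signal from more than 1 transcript.

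Factors that start and extend translation were less uniform. Of 37 kept, 26 (70.3%) were higher and 3 of them (8.11%) had an unadjusted p under 0.05, against 56.1% and 3.71% over all genes. The brightest class held 13 of the 37, and there 87.5% of all probe sets were higher and 8.93% were higher with that p. The median log2 difference was 0.21 in all 16 animals, 0.06 after quantile normalization, 0.15 in females and 0.13 without young adult M1. EIF1B, which helps select the start codon, had signals of 953 to 4568 (median 1654) in young adults and 1828 to 6297 (median 3592) in old animals. Every old animal was above the young adult median but only 4 were above the young adult range, and the difference was 0.89 ± 0.34 (SE, unadjusted p = 0.0174). EIF3D, a subunit of the large initiation factor that bridges mRNA and ribosome, showed a log2 difference of 0.78 ± 0.33 (SE, unadjusted p = 0.0274). Mitochondrial ribosomal proteins, which translate the few proteins encoded in mitochondria, were higher in 33 of 45 genes, with a median log2 difference of 0.16 in all 16 animals, 0.20 after quantile normalization, 0.04 in females and 0.07 without young adult M1. MRPS31 (log2 difference 0.97) and MRPL39 (0.77) had the smallest p among them, with 0.60 for MRPS31 without young adult M1, and MRPL54 was lower (-0.93, unadjusted p = 0.0375).

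Subunits of the respiratory chain, which passes electrons to oxygen and drives ATP synthesis, were also mostly higher in old animals. For complex I, which takes electrons from NADH, 21 of 28 kept genes were higher and 8 (28.6%) had an unadjusted p under 0.05 in limma, with none lower. Complexes II to V, which include cytochrome oxidase and ATP synthase, had 25 of 32 higher and 7 (21.9%) at that p, with none lower. Over all genes 3.71% were higher at that p. The called genes include NDUFC1 and NDUFA9 of complex I and ATP5ME and COX6B1 of the other complexes. These passed the filter only through old animals, so their part in the counts is no support for a difference. The median log2 difference for complex I was 0.33 in all 16 animals, 0.24 after quantile normalization, 0.23 in females and 0.30 without young adult M1. That for complexes II to V was 0.23 in all 16 animals, 0.17 after quantile normalization, 0.12 in females and 0.18 without young adult M1. After quantile normalization 6 genes of each list had an unadjusted p under 0.05 and none of them was lower. Over all genes in that setting 3.91% were higher with that p. The mean log2 level of complex I genes was 8.43 to 8.98 (median 8.62) in young adults and 8.84 to 9.16 (median 8.96) in old animals. All 10 old animals were above the young adult median, and young adult F3 was above 6 of the old animals. For complexes II to V it was 8.60 to 9.40 (median 9.20) in young adults and 9.29 to 9.59 (median 9.40) in old animals, with young adult M1 far below the rest.

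NDUFB8, an accessory subunit of complex I, had signals of 1142 to 3071 (median 2055) in young adults and 2216 to 4355 (median 3602) in old animals. Only old M1 and old M2 lay within the young adult range, and the difference was 0.78 ± 0.23 (SE, unadjusted p = 0.00279), with 0.77 for a second kept probe set. NDUFC1, another accessory subunit, was dim, with signals of 15.8 to 135 (median 45) in young adults and 15.3 to 184 (median 132.8) in old animals, and was kept through old animals alone. Old F3 had a signal near the lowest young adult, and NDUFC1 showed a log2 difference of 1.09 ± 0.37 (SE, unadjusted p = 0.00856). NDUFV2 (0.88), NDUFS7 (0.78), NDUFA2 (0.55), NDUFA6 (0.65), NDUFB9 (0.59) and NDUFA9 (0.88) completed the 8. In ATP synthase, ATP5PO, a stalk subunit, had signals of 243 to 635 (median 497) in young adults and 562 to 794 (median 705) in old animals. Its old animals were narrow, all above the young adult median, with a log2 difference of 0.63 ± 0.22 (SE, unadjusted p = 0.01). ATP5MG (0.82), ATP5MC2 (0.52) and ATP5F1B (0.50) of ATP synthase, UQCRC1 (0.79) of complex III and COX6B1 (1.09) of cytochrome oxidase had unadjusted p between 0.0171 and 0.0214.

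**Figure D3:**
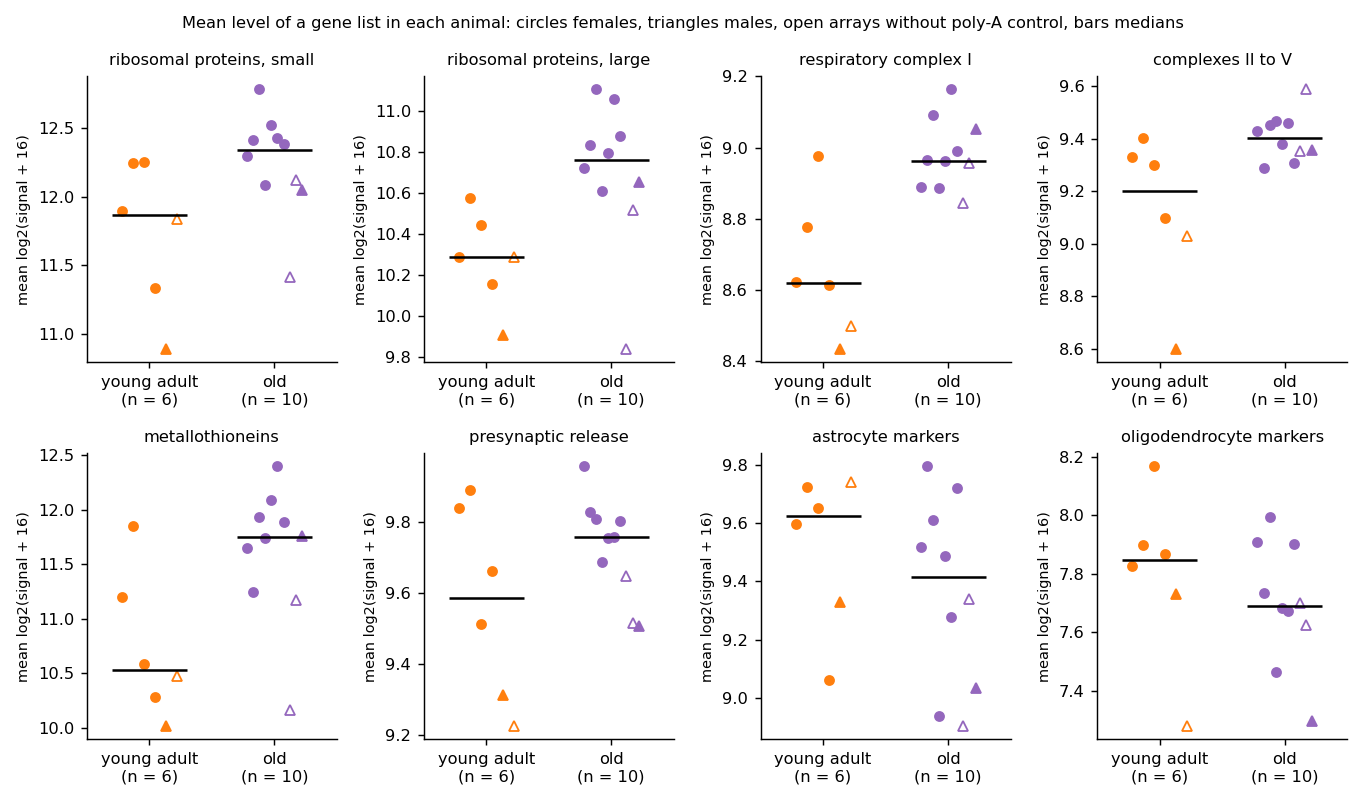
Mean log2(signal + 16) over the kept genes of 8 lists in each animal, with circles for females, triangles for males, open symbols for the 3 arrays without the poly-A control, and bars for the group medians. Ribosomal protein, respiratory chain and metallothionein genes have higher medians in old animals with overlapping ranges, young adult M1 is lowest or near lowest in these lists, and the astrocyte and oligodendrocyte lists have lower medians in old animals.

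Glycolytic genes, which feed the mitochondria with pyruvate, were higher in 18 of 23, with a median log2 difference of 0.25 in all 16 animals, 0.17 after quantile normalization, 0.15 in females and 0.19 without young adult M1. PGAM1, a phosphoglycerate mutase, had signals of 36 to 491 (median 372) in young adults and 413 to 865 (median 501) in old animals. The low end came from young adult F3, and without it the log2 difference of 0.96 was 0.47. TPI1, triosephosphate isomerase, showed a log2 difference of 0.53 ± 0.23 (SE, unadjusted p = 0.0302), against 0.04 in a second probe set. PPA1, a soluble pyrophosphatase that removes a by-product of biosynthesis, had signals of 618 to 1028 (median 772) in young adults and 979 to 1859 (median 1291) in old animals. PPA1 in 9 of 10 old animals exceeded all young adults, and it showed a log2 difference of 0.74 ± 0.20 (SE, unadjusted p = 0.0017) with 0.57 after quantile normalization.

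Proteasome subunits, which form the particle that degrades ubiquitin-tagged proteins, were higher in 30 of 32 genes, and 3 (9.38%) had an unadjusted p under 0.05. Of the 32, 14 were in the brightest class, where 8.93% of all probe sets had that p and 87.5% were higher. The median log2 difference was 0.36 in all 16 animals, 0.22 after quantile normalization, 0.20 in females and 0.24 without young adult M1. PSMA3, a subunit of the core, had signals of 131 to 699 (median 520.4) in young adults and 533 to 837 (median 676) in old animals, and all old animals were above the young adult median with a log2 difference of 0.80 ± 0.31 (SE, unadjusted p = 0.0179) and of 0.51 without young adult M1. PSMC4, an ATPase of the regulatory cap, had signals of 62.9 to 349 (median 264) in young adults and 219 to 524 (median 383) in old animals. PSMC4 was above every young adult in 6 of 10 old animals, its log2 difference was 0.78 ± 0.30 (SE, unadjusted p = 0.019), and it was 0.23 in females and 0.48 without young adult M1. Ubiquitin and ubiquilin genes were higher in 36 of 45 with a median of 0.21 in all 16 animals, 0.03 after quantile normalization, 0.14 in females and 0.12 without young adult M1. The brightest class held 18 of these 45. RBX1, the catalytic RING subunit of cullin ligases, had signals of 858 to 1895 (median 1637) in young adults and 1706 to 3846 (median 2254) in old animals and showed a log2 difference of 0.68 ± 0.23 (SE, unadjusted p = 0.00749). NSFL1C, a cofactor of the p97 segregase, showed a log2 difference of 0.57 ± 0.19 (SE, unadjusted p = 0.00833), against -0.46, 0.19 and 0.36 in its other probe sets. Chaperones, which fold proteins, had a median of 0.03 in all 16 animals, -0.06 after quantile normalization, 0.00 in females and 0.01 without young adult M1, so the direction turned with the normalization. CCT3, of the chaperonin that folds actin and tubulin, was the only chaperone among 38 with an unadjusted p under 0.05, and it was above every young adult in 9 of 10 old animals and showed a log2 difference of 0.63 ± 0.24 (SE, unadjusted p = 0.0152) and old M1 lowest of its group.

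Metallothioneins, small cysteine-rich proteins that bind zinc and copper, showed the largest median difference of the 42 lists. The study had already reported MT1G and MT1H as higher in these old animals, and the list was chosen with earlier results known. Its rank and its share of genes with a small p are therefore description only. All 7 kept genes (10 listed) were higher in old animals, and 5 (71.4%) had an unadjusted p under 0.05, against 3.71% higher at that p over all genes. Of the 7, 6 were in the brightest class, where 8.93% of all probe sets were higher with that p and 87.5% were higher. After quantile normalization all 7 were higher and 3 had an unadjusted p under 0.05, against 53.3% higher and 3.91% higher with that p over all genes. The median log2 difference was 1.03 in all 16 animals, 0.67 after quantile normalization, 1.01 in females and 0.90 without young adult M1. MT1G had signals of 422 to 2110.2 (median 913) in young adults and 859.5 to 3507 (median 2216) in old animals. Old M1 was the exception below the young adult median, 6 old animals were above every young adult, and the difference was 1.12 ± 0.32 (SE, unadjusted p = 0.00207). MT1H had signals of 1194 to 3730.2 (median 1658) in young adults and 1558 to 5878 (median 3905) in old animals, with a log2 difference of 1.03 ± 0.30 (SE, unadjusted p = 0.00272). MT1X had signals of 1855 to 13397 (median 2659.8) in young adults and 1504 to 20777 (median 11930.3) in old animals, and MT2A had signals of 1978 to 9066 (median 2104) in young adults and 1262 to 14804 (median 8604) in old animals. In both, 1 young adult (F2) was near the old median and old M1 was the lowest animal of all, with log2 differences of 1.35 and 1.03. MT1F (0.79) and MT1E (0.49) were higher by less. MT3, the form most typical of neural tissue, differed by 0.27 ± 0.26 (SE, unadjusted p = 0.303). The human MT1 and MT2 genes are near-identical and 6 of the 7 probe sets are of a type whose probes match several of them, so these 6 are not independent measurements. The mean log2 level of the list was 10.01 to 11.85 (median 10.53) in young adults and 10.16 to 12.40 (median 11.75) in old animals.

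Other antioxidant genes were higher in 21 of 28, with a median of 0.15 in all 16 animals, 0.13 after quantile normalization, 0.23 in females and 0.16 without young adult M1. TXN, thioredoxin, had signals of 1234 to 3016 (median 2423) in young adults and 2436 to 4926 (median 3518) in old animals. The 7 old females were above every young adult and the 3 old males were not, with a log2 difference of 0.66 ± 0.23 (SE, unadjusted p = 0.00992). PARK7, a redox-sensitive chaperone linked to inherited parkinsonism, had signals of 50.7 to 211 (median 108) in young adults and 109 to 478 (median 184) in old animals and showed a log2 difference of 0.86 ± 0.31 (SE, unadjusted p = 0.0115). BLVRB, a biliverdin and flavin reductase, was dim in young adults, with signals of 34.8 to 126 (median 57.6) in young adults and 67.8 to 235 (median 162) in old animals. No young adult reached a signal of 150 for BLVRB, against 6 old animals, and it showed a log2 difference of 1.01 ± 0.27 (SE, unadjusted p = 0.00144).

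**Figure D4:**
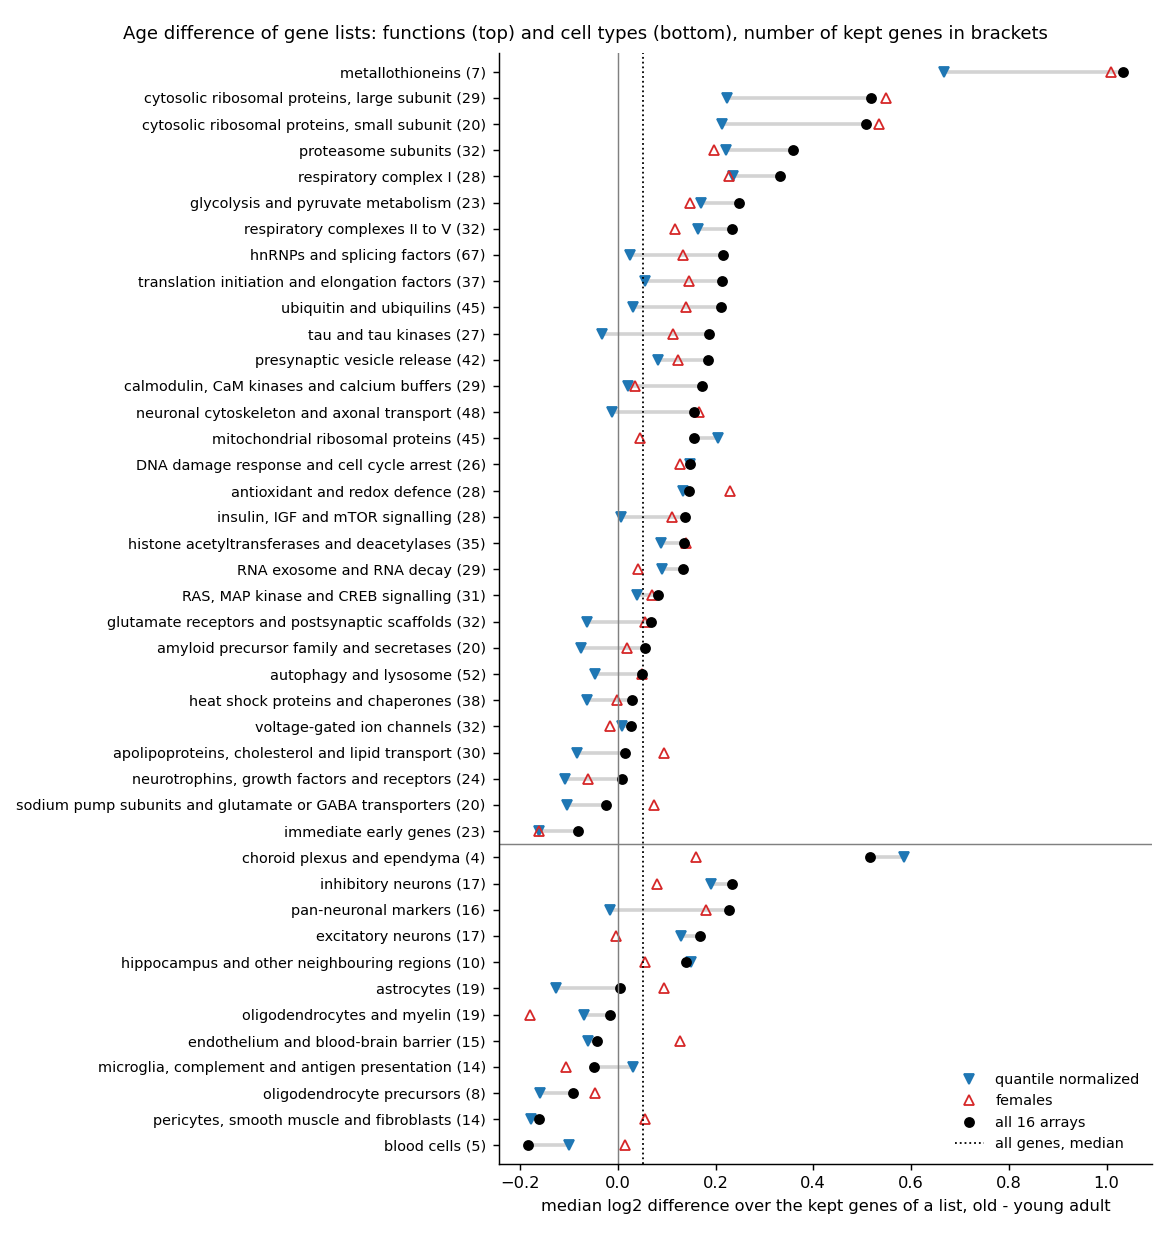
Median log2 difference between old and young adult animals over the kept genes of each list (horizontal axis), with filled circles for all 16 arrays, triangles pointing down for quantile normalized arrays, open triangles for females and a dotted line for the median over all 8328 genes. Metallothioneins (1.03) and ribosomal proteins (0.52 and 0.51) lie farthest to the right among functions, quantile normalization moves most lists toward 0, and the cell type lists for glia, vessels and blood lie near or below 0.

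The genes with the smallest p outside these groups were mostly dim. TP53BP1, an adaptor of DNA double-strand break repair, had signals of 18.6 to 150.1 (median 51.4) in young adults and 111 to 191 (median 154) in old animals in its probe set with the smallest p. All 10 old animals were above the young adult median and 7 above every young adult, with a log2 difference of 1.16 ± 0.27 (SE, unadjusted p = 0.000304). Its brighter probe set, with a mean signal of 815, gave a log2 difference of 0.24 (unadjusted p = 0.327), and another gave 0.61. SLCO3A1, an organic anion transporter, had signals of 10.4 to 71 (median 48.1) in young adults and 58 to 381 (median 189) in old animals and showed a log2 difference of 1.50 ± 0.37 (SE, unadjusted p = 0.000713), while a second probe set gave 0.03. KCNIP3, a calcium sensor that binds potassium channels and DNA, had signals of 28.2 to 132 (median 74.4) in young adults and 103 to 204 (median 176) in old animals, with a log2 difference of 1.00 ± 0.26 (SE, unadjusted p = 0.00111), but 2 brighter probe sets gave -0.36 and -0.42. MYO6, the myosin that moves toward the minus end of actin, showed 1.23 ± 0.33 (SE, unadjusted p = 0.00133). RHOH, a GTPase of blood cells, had signals of 24.1 to 34.2 (median 31.8) in young adults and 15.9 to 296 (median 136) in old animals, and 2 old animals lay below the young adult median. The young adult signals of RHOH lay near or below the median of an array. CCND3 and GRPEL1, a cyclin and a mitochondrial import factor, differed by 1.11 and 1.10, and CCND3 by 0.04 in a second probe set. No young adult reached 150 for SLCO3A1, KCNIP3, MYO6 and RHOH, and 1 did for TP53BP1, CCND3 and GRPEL1. CCND3 was kept through 2 old animals and 1 young adult together.

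Among the 10 lower genes with the smallest p, AHCYL2 was the one with signals above 120 in all animals. AHCYL2, a relative of an inhibitor of the IP3 receptor, had signals of 327 to 459 (median 372) in young adults and 125 to 352 (median 191) in old animals. All old animals but 1 lay below every young adult, with a log2 difference of -0.79 ± 0.22 (SE, unadjusted p = 0.00178) and -0.87 after quantile normalization, whereas a dimmer probe set gave 0.24. TMEM151B, a membrane protein of the brain, had signals of 159 to 384 (median 216) in young adults and 11.1 to 192 (median 104) in old animals, with a log2 difference of -1.40 ± 0.40 (SE, unadjusted p = 0.0024). Its 2 other probe sets gave -1.02 and 0.25. LLGL1, a cell polarity protein, had signals of 126 to 227 (median 202) in young adults and 17.1 to 172 (median 106) in old animals and showed a log2 difference of -1.08 ± 0.31 (SE, unadjusted p = 0.00233), and its second probe set gave -0.81. CPLX3, a complexin that clamps synaptic vesicle fusion, had signals of 117 to 212 (median 139.8) in young adults and 19 to 154 (median 78) in old animals. Only 1 old animal overlapped the young adults in CPLX3, with a log2 difference of -1.16 ± 0.33 (SE, unadjusted p = 0.00235). ARSF (-1.29), NAT16 (-1.82), TMCC2 (-1.29), TOB2 (-1.09) and ERN2 (-1.18) were the remaining lower genes, with young adult medians of 153 to 213 and old medians of 20.6 to 81.9, and no old animal reached 150 for ARSF, NAT16 and TMCC2. Second probe sets for TMCC2 and TOB2 gave log2 differences of 0.55 each.

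Genes of presynaptic vesicle release were higher in 30 of 42, with a median log2 difference of 0.19 in all 16 animals, 0.08 after quantile normalization, 0.12 in females and 0.15 without young adult M1. The brightest class, where 87.5% of all probe sets were higher, held 13 of these 42. NAPG, which helps take apart used SNARE complexes, had signals of 358 to 1065 (median 660.4) in young adults and 745 to 1387 (median 976) in old animals, and all old animals were above the young adult median with a log2 difference of 0.54 ± 0.23 (SE, unadjusted p = 0.027). VAMP1, a vesicle SNARE, showed a log2 difference of 0.55 ± 0.23 (SE, unadjusted p = 0.0284). SYN1, synapsin, which tethers vesicles, lay the other way, with signals of 1789 to 3644 (median 2577) in young adults and 759 to 3696 (median 1494) in old animals. In SYN1 7 old animals were below every young adult and 1 was above all of them, with a log2 difference of -0.62 ± 0.31 (SE, unadjusted p = 0.06), and a second, dimmer probe set gave 0.14. Glutamate receptors and their scaffolds had a median of 0.07 in all 16 animals, -0.06 after quantile normalization, 0.06 in females and 0.03 without young adult M1, so their direction turned with the normalization. GRIA1, an AMPA receptor subunit, had signals of 79.2 to 159 (median 149) in young adults and 114 to 257 (median 193) in old animals, with 7 of 10 old animals above every young adult and a log2 difference of 0.50 ± 0.22 (SE, unadjusted p = 0.0372). GRIK1, a kainate receptor subunit, showed a log2 difference of 0.38 ± 0.22 (SE, unadjusted p = 0.103) and 0.24 without young adult M1, and -0.41 in a second probe set.

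Calcium signalling genes had a median of 0.17 in all 16 animals, 0.02 after quantile normalization, 0.04 in females and 0.15 without young adult M1. CAMK1, a calmodulin-dependent kinase, had signals of 32.7 to 269 (median 149) in young adults and 74.5 to 445 (median 295) in old animals and showed a log2 difference of 1.02 ± 0.42 (SE, unadjusted p = 0.0249). PCP4, a small regulator of calmodulin, had signals of 261 to 483 (median 322) in young adults and 149 to 359 (median 227) in old animals, with 6 old animals below every young adult and a log2 difference of -0.46 ± 0.22 (SE, unadjusted p = 0.0476). Beside CACNA1H, the channel subunit CACNA2D2 showed a log2 difference of 0.58 ± 0.26 (SE, unadjusted p = 0.0395), and the 32 voltage-gated channel genes had a median of 0.03 in all 16 animals, 0.01 after quantile normalization, -0.02 in females and 0.01 without young adult M1, with the sign turned in females. Immediate early genes, which respond within minutes to neuronal activity, were lower in 14 of 23 with a median of -0.08 in all 16 animals, -0.16 after quantile normalization, -0.16 in females and -0.03 without young adult M1. IER3 was the exception at an unadjusted p under 0.05, with a log2 difference of 0.79 ± 0.35 (SE, unadjusted p = 0.0353) that was 0.44 without young adult F4, while DUSP1, a MAP kinase phosphatase, showed a log2 difference of -0.38 ± 0.26 (SE, unadjusted p = 0.161). Sodium pump subunits and transmitter transporters had a median of -0.02 in all 16 animals, -0.10 after quantile normalization, 0.07 in females and -0.02 without young adult M1, and 0.01 after median centring. ATP1B3, a pump subunit, differed by 0.68 (0.38 without young adult F2) and SLC6A11, a GABA transporter of glia, by -0.43 (unadjusted p = 0.141), which was -0.27 without old M3 and -0.28 without young adult F3.

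In growth factor signalling, 12 of 24 genes were higher, with a median of 0.01 in all 16 animals, -0.11 after quantile normalization, -0.06 in females and -0.08 without young adult M1. CNTFR, the receptor for ciliary neurotrophic factor, had signals of 263 to 581 (median 354) in young adults and 167 to 361 (median 211) in old animals. CNTFR lay below the whole young adult range in 8 of 10 old animals and showed a log2 difference of -0.66 ± 0.23 (SE, unadjusted p = 0.00858). FGFR3, a fibroblast growth factor receptor of astrocytes, showed a log2 difference of -0.74 ± 0.40 (SE, unadjusted p = 0.0821) that was -0.49 without old F4. The RAS, MAP kinase and CREB list had a median of 0.08 in all 16 animals, 0.04 after quantile normalization, 0.07 in females and 0.03 without young adult M1. MAP2K1, the kinase that activates ERK, had signals of 176 to 404 (median 352) in young adults and 383 to 679 (median 518) in old animals. MAP2K1 was above every young adult in 9 of 10 old animals and showed a log2 difference of 0.67 ± 0.21 (SE, unadjusted p = 0.00487), and young adult M1 was far below its group. RASGRF1, a calcium-responsive activator of RAS in neurons, had signals of 86.3 to 297 (median 173) in young adults and 33.3 to 216 (median 84) in old animals and showed a log2 difference of -0.88 ± 0.34 (SE, unadjusted p = 0.0168). Insulin, IGF and mTOR genes had a median of 0.14 in all 16 animals, 0.01 after quantile normalization, 0.11 in females and 0.06 without young adult M1. IRS2, an insulin receptor substrate, showed a log2 difference of 0.51 ± 0.21 (SE, unadjusted p = 0.0277), against -0.02 in a dimmer probe set, and PRKAB1, a subunit of the energy sensor AMPK, showed a log2 difference of -0.71 ± 0.33 (SE, unadjusted p = 0.0453).

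Among genes tied to Alzheimer's disease biology, an unadjusted p under 0.05 was found for 1 of 20 in the amyloid precursor and secretase list, 1 of 27 for tau and its kinases and 2 of 48 for the cytoskeleton, all higher, near the share of 3.71% higher over all genes. The amyloid precursor and secretase list was higher in 10 of 20, with a median of 0.06 in all 16 animals, -0.07 after quantile normalization, 0.02 in females and -0.02 without young adult M1. APP, the amyloid precursor, had signals of 3421 to 13811 (median 8328) in young adults and 6321 to 16991 (median 12477) in old animals in its brightest probe set, with a log2 difference of 0.55 ± 0.30 (SE, unadjusted p = 0.085) and 0.05 and 0.07 in 2 others, and it was 0.32 without young adult M1. SORL1, a sorting receptor for APP, had signals of 151 to 559.9 (median 465) in young adults and 395 to 799.7 (median 553) in old animals. SORL1 showed a log2 difference of 0.55 ± 0.26 (SE, unadjusted p = 0.0464), but 0.05 in females and 0.30 without young adult M1. Tau and its kinases were higher in 20 of 27, with a median of 0.19 in all 16 animals, -0.03 after quantile normalization, 0.11 in females and 0.09 without young adult M1, and the cytoskeleton list in 37 of 48, with 0.16 in all 16 animals, -0.01 after quantile normalization, 0.17 in females and 0.08 without young adult M1. In both lists the sign turned with quantile normalization, and 12 of 27 and 27 of 48 of their probe sets were in the brightest class. CSNK1G1, a casein kinase, had signals of 288 to 385 (median 332) in young adults and 357 to 545 (median 429) in old animals. Of the 10 old animals 8 lay above the young adult range, and all animals together gave a log2 difference of 0.41 ± 0.18 (SE, unadjusted p = 0.0314). CSNK1D differed by 0.32. ACTB, beta-actin, had signals of 5585 to 12107 (median 7488) in young adults and 5891 to 15852 (median 12846) in old animals and differed by 0.63, with 0.30 and 0.42 in 2 other probe sets. DCTN2, of the dynactin complex that carries cargo along axons, showed a log2 difference of 0.55 ± 0.23 (SE, unadjusted p = 0.0244) that was 0.35 without young adult M2.

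Genes of autophagy and the lysosome, the other route of protein removal, had a median of 0.05 in all 16 animals, -0.05 after quantile normalization, 0.05 in females and 0.01 without young adult M1 over 52 genes, so the sign turned with quantile normalization. ATG14 and BECN1, subunits of the lipid kinase that starts autophagy, differed by 0.74 (unadjusted p = 0.0128) and 0.44 (unadjusted p = 0.0525). Splicing genes were higher in 51 of 67 with a median of 0.22 in all 16 animals, 0.03 after quantile normalization, 0.13 in females and 0.10 without young adult M1. The brightest class, where 87.5% of all probe sets were higher, held 31 of these 67. HNRNPL had signals of 1562 to 3505 (median 2215) in young adults and 2553 to 3472 (median 3073) in old animals, within which no old animal exceeded the young adult range, and HNRNPLL differed by 0.83. Genes of the RNA exosome and RNA decay were higher in 22 of 29, with a median of 0.13 in all 16 animals, 0.09 after quantile normalization, 0.04 in females and 0.02 without young adult M1. Limma's unadjusted p was under 0.05 for 4 higher genes (13.8%) and 1 lower gene (3.45%), against 3.71% and 2.23% over all genes. After quantile normalization 2 higher and 0 lower genes had that p, against 3.91% higher and 218 of 8328 lower over all genes. EXOSC9, of the exosome ring, had signals of 50.5 to 158 (median 117) in young adults and 125 to 248 (median 196) in old animals. EXOSC9 in old animals lay above every young adult in 9 of 10, with a log2 difference of 0.79 ± 0.23 (SE, unadjusted p = 0.00249). Only 2 young adults reached 150 for EXOSC9, so it was kept through old animals. LSM2, which binds the ends of RNAs due for decay, had signals of 195 to 462 (median 323) in young adults and 332 to 553 (median 484) in old animals and showed a log2 difference of 0.55 ± 0.21 (SE, unadjusted p = 0.0165), and SMG5, of nonsense-mediated decay, was lower (-0.75).

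Chromatin acetylation genes had a median of 0.14 in all 16 animals, 0.09 after quantile normalization, 0.14 in females and 0.07 without young adult M1, with BRD2, a reader of acetylated histones, at 0.62 (0.37 without young adult M1) and MTA2, of the NuRD complex, at 0.64 (0.36 without young adult F3). DNA repair and cell cycle arrest genes had a median of 0.15 in all 16 animals, 0.15 after quantile normalization, 0.13 in females and 0.14 without young adult M1. POLB, the polymerase of base excision repair, had signals of 31.4 to 361 (median 191) in young adults and 179 to 569 (median 393) in old animals. All old animals but 1 were above the young adult median in POLB, with a log2 difference of 1.15 ± 0.37 (SE, unadjusted p = 0.00555), and ERCC1, an excision repair nuclease, differed by 0.68 and by 0.70 in a second probe set. Lipid transport genes were higher in 15 of 30, with a median of 0.01 in all 16 animals, -0.08 after quantile normalization, 0.09 in females and -0.02 without young adult M1. Limma's unadjusted p was under 0.05 for 2 of the 30 (6.67%), CLU and FABP5, both lower, against 2.23% lower over all genes. Both passed the filter only through young adults, so this count is no support for a difference. CLU, clusterin, a secreted apolipoprotein made by astrocytes, had signals of 62.4 to 419 (median 195) in young adults and 42.3 to 130.1 (median 84) in old animals. CLU reached 150 in 3 young adults and no old animal. In all old animals it was below the young adult median, with a log2 difference of -1.04 ± 0.34 (SE, unadjusted p = 0.00621) and -1.10 and -0.13 in 2 other dim probe sets. FABP5, a fatty acid carrier, showed a log2 difference of -0.68 ± 0.31 (SE, unadjusted p = 0.038).

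Cell type markers were compared to describe the composition of the samples, and in whole tissue fewer cells of a type and less RNA per cell cannot be told apart. Neurons were plainly present, with SNAP25, a synaptic SNARE, at 5682 to 39885 and SLC17A7, the vesicular glutamate transporter of cortical excitatory neurons, at 735 to 2863 across the 16 animals. SLC17A7 had signals of 1179 to 2863 (median 1955) in young adults and 735 to 2509 (median 1945) in old animals, which overlapped almost fully. AQP4 of astrocytes reached 555 to 5888, and MBP of myelin 125 to 371. GFAP of astrocytes, CX3CR1 of microglia and PDGFRB of pericytes reached 150 on 0 of 16 arrays, and CSF1R of microglia and CLDN5 of endothelium on 1. These markers were too dim to describe their cells here.

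Neuronal markers had small positive medians. Excitatory markers were higher in 11 of 17, with a median log2 difference of 0.17 in all 16 animals, 0.13 after quantile normalization, 0.00 in females and 0.13 without young adult M1, and inhibitory markers in 13 of 17, with 0.23 in all 16 animals, 0.19 after quantile normalization, 0.08 in females and 0.18 without young adult M1. Pan-neuronal markers had 0.23 in all 16 animals, -0.02 after quantile normalization, 0.18 in females and 0.14 without young adult M1, with 12 of 16 in the brightest class. CUX2, a transcription factor of upper-layer neurons, had signals of 9.82 to 168 (median 15.7) in young adults and 23.9 to 288 (median 94.8) in old animals and showed a log2 difference of 1.08 ± 0.48 (SE, unadjusted p = 0.0344). NEUROD6, of excitatory neurons, was bright and differed by 0.61 (unadjusted p = 0.119). NPY, a neuropeptide of interneurons, had signals of 185 to 357 (median 222) in young adults and 207 to 444 (median 341) in old animals, with a log2 difference of 0.46 ± 0.21 (SE, unadjusted p = 0.0451), and GAD1, the enzyme that makes GABA, had signals of 646 to 1939.7 (median 1039.5) in young adults and 965 to 2185 (median 1616) in old animals, with a log2 difference of 0.51 ± 0.27 (SE, unadjusted p = 0.0722). A second probe set for GAD1 gave -0.13. DLX2, a regulator of interneuron identity, differed by 0.74, and ELAVL2, a neuronal RNA-binding protein, by 0.82 ± 0.36 (SE, unadjusted p = 0.0343). The 6 lower excitatory genes included CAMK2A (-0.41) and SLC17A6 (-0.29), the 4 lower inhibitory genes CORT (-0.55) and CCK (-0.25), and the 5 lower pan-neuronal genes SYN1 (-0.62), UCHL1 (-0.58) and THY1 (-0.55).

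Glial and vascular markers had medians near or below 0. Astrocyte markers were higher in 10 of 19, with a median of 0.00 in all 16 animals, -0.13 after quantile normalization, 0.09 in females and -0.08 without young adult M1. At an unadjusted p under 0.05 none lay higher and 1 (5.26%) lay lower, against 2.23% lower over all genes. CST3, cystatin C, a protease inhibitor abundant in astrocytes, had signals of 191 to 443 (median 295) in young adults and 96.2 to 383 (median 205) in old animals. In 9 of 10 old animals CST3 was below the median of the young adults, and it showed a log2 difference of -0.60 ± 0.26 (SE, unadjusted p = 0.0304). NDRG2 had signals of 1336 to 5153 (median 4349) in young adults and 275 to 7134 (median 1911) in old animals and GLUL, glutamine synthetase, had signals of 3689 to 10949 (median 7848) in young adults and 951 to 20448 (median 4987) in old animals. Both varied widely among old animals, with log2 differences of -0.81 ± 0.58 and -0.75 ± 0.61 (SE), and ALDH1L1 differed by -0.61, with 0.37 in a second probe set. Of the 10 higher astrocyte genes, SLC4A4 (0.25), SLC1A2 (0.24) and FABP7 (0.21) had the largest differences, with unadjusted p between 0.45 and 0.589. Oligodendrocyte and myelin markers had a median of -0.02 in all 16 animals, -0.07 after quantile normalization, -0.18 in females and -0.11 without young adult M1, and 0.01 after median centring. KLK6 (-0.77), MBP (-0.40) and MAG (-0.54) lay lower, and CRYAB (0.47) and MOBP (0.19) higher. Precursor markers were lower in 7 of 8, with a median of -0.09 in all 16 animals, -0.16 after quantile normalization, -0.05 in females and -0.16 without young adult M1. OLIG2 differed by -0.37 (-0.23 without young adult F2) and SOX6 by 0.30 (0.02 without young adult M1).

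Only 14 of 52 listed genes for microglia, complement and antigen presentation were kept, with a median of -0.05 in all 16 animals, 0.03 after quantile normalization, -0.11 in females and -0.05 without young adult M1. ITGAM (0.77, and 0.48 without young adult M1) and P2RY12 (-0.89), both receptors of microglia, lay in opposite directions with signals of at most 266. The difference of P2RY12 was -0.25 in females, -2.28 in males and -0.29 on the arrays with the poly-A control. Endothelial markers had a median of -0.04 in all 16 animals, -0.06 after quantile normalization, 0.13 in females and -0.05 without young adult M1, with A2M, a protease inhibitor, at -0.40 (unadjusted p = 0.0401) and EGFL7 at 0.56. Pericyte and fibroblast markers were lower in 11 of 14, with a median of -0.16 in all 16 animals, -0.18 after quantile normalization, 0.06 in females and -0.09 without young adult M1, and COL3A1 and COL4A2, collagens, differed by -0.94 and -0.86, the second by -0.49 without young adult M2 and -1.29 without young adult F2. Blood cell markers were kept for 5 of 32 genes, with a median of -0.18 in all 16 animals, -0.10 after quantile normalization, 0.01 in females and -0.09 without young adult M1, CD79A at -0.28 and IGHM at -0.47 (-0.30 without old F1). TTR, transthyretin, the main product of the choroid plexus, had signals of 13.1 to 23832 (median 278) in young adults and 194 to 19297 (median 1002) in old animals. The spread within each group was far wider than the gap between them, with a log2 difference of 1.43 ± 1.36 (SE, unadjusted p = 0.308) that lay between 0.62 and 2.55 when 1 young adult was left out. SPAG6, of motile cilia, differed by 0.66 (0.24 without young adult M1), and the 4 choroid plexus and ependyma genes had a median of 0.52 in all 16 animals, 0.59 after quantile normalization, 0.16 in females and 0.13 without young adult M1. Markers of neighbouring regions such as hippocampus and striatum had a median of 0.14 in all 16 animals, 0.15 after quantile normalization, 0.05 in females and 0.03 without young adult M1 over 10 genes, with DRD2 at 0.69 (0.43 without young adult F3, and -0.21 in a second probe set) and PDYN at 0.66 (0.43 without young adult F4). The part of tissue composition in the differences above was not tested.

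The age difference was also fitted separately in females and males. In limma 587 of 13881 probe sets had an unadjusted p under 0.05 for females and 1148 for males, where the young adult group held 2 animals, 1 of them on an array without the poly-A control. Old M1 and old M2 also lacked that control and no female array did, whereas the males old M3 and young adult M1 carried it. Array preparation can therefore be told apart from sex only in part in the male values. After adjustment 0 passed in females and 1 in males, a probe set that does not carry exactly 1 gene symbol in the table used. For the interaction of age and sex the unadjusted p was under 0.05 in 670 probe sets (4.83%) and 0 passed the adjusted threshold, with a smallest adjusted p of 0.108. With the poly-A control as a block limma gave 687 probe sets at that unadjusted p for females, 1403 for males and 885 for the interaction, where 0 passed. After quantile normalization 977 had that p for the interaction and 1 passed, so the count depended on the setting. Metallothioneins had a median log2 difference of 1.01 in females and 0.71 in males, with 7 of 7 genes higher in both. Small-subunit ribosomal proteins had 0.54 and 0.50, with 18 of 20 genes higher in both, and large-subunit ones 0.55 and 0.22. Complex I had 0.23 and 0.57, and the proteasome 0.20 and 0.66. Astrocyte markers had 0.09 in females and -0.43 in males, and pericyte markers 0.06 and -0.69. Within these lists the interaction had an unadjusted p under 0.05 in 0 metallothioneins, 0 small-subunit and 0 large-subunit genes, 1 complex I gene, 2 proteasome genes, 1 astrocyte gene and 4 of 14 pericyte genes.

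**Figure D5:**
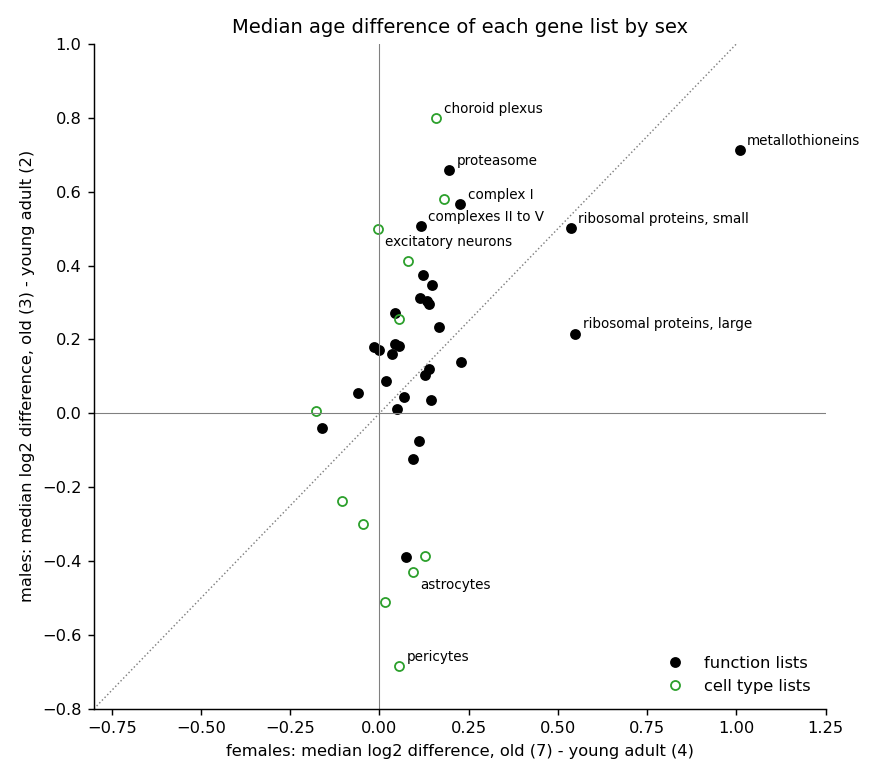
Median log2 difference between old and young adult animals over the kept genes of each list in females (horizontal axis, 7 old and 4 young adult) and males (vertical axis, 3 old and 2 young adult), with filled circles for function lists, open circles for cell type lists and a dotted line of equality. Metallothioneins and small-subunit ribosomal proteins are positive in both sexes, and astrocyte and pericyte markers are near 0 in females and below 0 in males.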

How the data were processed

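RNA from the temporal cortex of 16 animals was measured on human HG-U133 Plus 2.0 arrays, 1 for each animal. Per the submitters' processing notes GCOS 1.2 was used. The intensity values deposited by the authors are linear, with a mean of 100 on each array once 2% was trimmed at each end. Detection calls were not used here. The number of arrays limits the precision.

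A probe set was kept when 3 or more of the 16 arrays reached a signal of 150, which left 13881 of 54613. Old and young adult animals were compared on log2(signal + 16) in limma 3.58.1 (R 4.3.3), adjusting by Benjamini-Hochberg over all kept probe sets at a threshold of 0.05. The code was tested on simulated data. Sex entered as an interaction in a separate model. The 42 gene lists (30 functions, 12 cell types) were described by counts and medians, with the brightest kept probe set standing for a gene. Of the kept probe sets 11874 carried 1 symbol, 561 several and 1446 none, and genes lacking a symbol in that table were not analysed here. Genes were named when they had the 10 smallest p in a direction, the 2 smallest p in a list or groups that did not overlap. Others were chosen after their values were seen. The members and lists were chosen with earlier results of these data known. Alternatives changed the offset, scaling, filter, variance model, covariates, block, test or animals.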

Additional observations from a re-analysis of the deposited data

Results flagged for a closer look

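Animals set apart from the rest of their group by a gap larger than Dixon's 95% limit were found in 19 of 308 groups of values examined, where chance gives about 1 in 20 groups. Each value below is a level as log2(signal + 16), followed by that of the nearest animal of the same group.

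In old animals, old M1, an array without the poly-A control, was lowest for NDUFB8 of respiratory complex I (11.12 against 11.58), the chaperonin subunit CCT3 (8.27 against 8.90), beta-actin, ACTB (12.53 against 13.29), and the mean of the large-subunit ribosomal proteins (9.84 against 10.52). Old M2, also without that control, was lowest for BRD2, a reader of acetylated histones (8.07 against 8.75). Old M3 was lowest for the calcium channel gene CACNA1H (5.71 against 6.85), the GABA transporter SLC6A11 (5.50 against 6.83) and the mean of the sodium pump and transporter genes (8.06 against 8.52). Old F3 was lowest for NDUFC1 (4.97 against 6.89), old F1 for DLX2 (5.95 against 7.16) and old F4 for PDYN (6.04 against 7.21).

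In young adults, young adult M1 was lowest for SLCO3A1 (4.72 against 5.89) and MAP2K1 (7.59 against 8.34), and it had the highest GAPDH ratio (log2, 3' control over 5' control), 0.68 against 0.32. Young adult M2 was lowest for LLGL1 (7.15 against 7.74) and the mean of the immediate early genes (8.34 against 9.14). Young adult F3 was lowest for PGAM1 (5.70 against 8.01), and young adult F2 was lowest for ATP1B3 (5.25 against 6.75) and highest for OLIG2 (8.48 against 7.81). The part of RNA quality or array preparation in these gaps was not tested.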

How the results depend on the processing

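Under all 31 alternatives 0 probe sets passed the adjusted threshold for the age difference, and the smallest adjusted p lay between 0.218 and 1.0. Without a filter the unadjusted p was under 0.05 for 1020 probe sets with a higher and 1954 with a lower level in old animals (of 54613), and 6 had every old animal above and 9 every old animal below the young adults. For the interaction with sex limma's unadjusted p was then under 0.05 in 2875 of 54613, and 0 passed the adjusted threshold (smallest adjusted p 0.363). With a filter on the mean signal 461 were higher and 132 lower (of 8847), and the median of the oligodendrocyte list was -0.29. In females alone the median of the mitochondrial ribosomal proteins was 0.045. After quantile normalization 1 interaction with sex passed the adjusted threshold. Leaving out 1 animal at a time gave 291 to 794 probe sets higher and 202 to 426 lower. The lowest counts were without young adult M1, the highest without young adult F2, and without young adult F4 216 were lower. It gave 3 to 14 with every old animal above, with 14 without young adult F1, 13 without young adult F2, 7 without old M1 and 6 without old F7 or young adult F3. It gave 2 to 5 below, with 5 without young adult M2 and 4 without old F5, old M2, young adult F1 or young adult M1. Fewer animals must be separated in these counts.

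With the label number as a replicate block, 502 probe sets were higher and 469 lower, with 0 after adjustment. The correlation of deviations between animals of the same label was 0.06 to 0.47 over 6 labels, and 3 of 6 old animals were closest to the young adult of their own label, so whether the labels pair the animals is not settled by these values.

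Among 110 single-gene results the direction changed in 4, none of which passed the adjusted threshold in any fit. TTR was -0.84 in the methods' t-test on linear signals. SLC17A7 was 0.029 with array weights, 0.027 on the arrays with the poly-A control and 0.27 in females. AQP4 was 0.015 on the arrays with the poly-A control, and MOG was 0.016 with the GAPDH ratio as a covariate. Of 42 list medians, 13 changed sign under quantile normalization or median centring, and 2 moved by more than 1 SD under any alternative. The dim signals of many named genes limit what can be said of them.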
